A study of Mus musculus with 10 samples.

Results

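The cells described here were Ly6C+ monocytes of mouse blood that held at least 1 molecule of Cd209a RNA. There were 129 of them among 1797 Ly6C+ monocytes and 14687 cells used in all, with 70 of 931 Ly6C+ monocytes in dataset 1 and 59 of 866 in dataset 2. A cell counted as a Ly6C+ monocyte when it carried the hashtag of that sorted population and no other. A hashtag is an antibody with a DNA barcode that marks the population a cell was sorted with. Cells also needed at least 1000 gene UMIs (unique molecular identifiers, each a counted RNA molecule), at least 500 genes and at most 10% mitochondrial UMIs. The chosen cells are called positive monocytes here, and they were set against the 861 and 807 Ly6C+ monocytes of the same datasets with 0 Cd209a UMIs, called Cd209a-0 monocytes. Since Cd209a chose the cells, its level is a description and was not tested.

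The blood donors were female C57BL/6Rj mice given clodronate liposomes 9 days before blood was taken, a treatment that depletes phagocytes and was used to raise the number of blood cells with high CD115 that lack Ly6C and CD43 (DN blood cells). Every blood population here, the Cd209a-0 monocytes included, came from such mice, 20 in dataset 1 and 18 in dataset 2, and the mice of a dataset were pooled. Untreated blood was not analysed here. Beside the Ly6C+ monocytes stood DN blood cells, CD43+ monocytes and, from Peyer's patches of untreated female C57BL/6Rj mice (30 and 20 donors), lysozyme-expressing dendritic cells (LysoDCs) and, in dataset 1, type 2 conventional dendritic cells (cDC2s). The stain of the blood sort covered Ly6C, CD43, CD115, CCR2 and MHC-II, besides CD45, CD24, SIRPa and the integrins CD11b and CD11c. Dataset 1 was a single library, tagged after the sort. Dataset 2 was tagged before the sort, and by the sample titles its Ly6C+ monocytes shared a library with mature LysoDCs. The hashtag list of that library names immature LysoDCs instead, and the title was followed here. DN and CD43+ blood cells were in other libraries. Positive and Cd209a-0 monocytes of a dataset therefore came from the same pool of mice, gate and library.

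Ly6C-high monocytes leave the bone marrow, circulate for a short time and enter tissues, where they can become macrophages or cells with features of dendritic cells. Cd209a encodes a C-type lectin of the DC-SIGN family, a group of surface receptors that bind sugars on microbes and host glycoproteins, and in mice it marks monocytes and dendritic cells that can present antigen. MHC class II molecules show peptides to CD4+ T cells, and their transcription depends on the transactivator encoded by Ciita. Clec10a encodes another C-type lectin, which binds galactose-type sugars.

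Both matrices together held 91530239 and 81034175 gene UMIs in 11878 and 13111 barcodes. The positive monocytes summed to 334136 and 383777 UMIs, against 3785947 and 4814197 in Cd209a-0 monocytes. Median depth per cell was 4642 and 6329 UMIs in positive monocytes, against 4394 and 5874 in Cd209a-0 monocytes. The median mitochondrial share was 2.14% and 3.55% in positive monocytes, against 2.14% and 3.23% in Cd209a-0 monocytes. The matrices had 37 barcodes in common, and 0 of the positive monocytes had a barcode found in the other matrix. Pools, not cells, are the replicates, so every test rests on 2 pools of mice. Pairs of values below give dataset 1 first and dataset 2 second.

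Positive monocytes made up 7.52% of Ly6C+ monocytes in dataset 1 (95% interval 5.91% to 9.40%) and 6.81% in dataset 2 (5.23% to 8.70%). CD43+ monocytes, a blood type with little Cd209a, gave 3.32% (2.09% to 4.98%) and 1.05% (0.505% to 1.92%), at lower median depths of 2963 and 2312 UMIs against 4409 and 5920 in all Ly6C+ monocytes. The exact Clopper-Pearson intervals of Ly6C+ and CD43+ monocytes did not overlap in either dataset. With every cell thinned to 2000 UMIs, the shares were 4.33% (3.10% to 5.87%) and 3.72% (2.56% to 5.21%) in Ly6C+ monocytes, against 1.92% (0.960% to 3.40%) and 1.23% (0.533% to 2.41%) in CD43+ monocytes. At this equal depth the intervals overlapped in dataset 1 and stood apart in dataset 2. Thinning kept 901 and 861 Ly6C+ and 574 and 650 CD43+ monocytes and left out shallower ones.

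Free RNA can put UMIs of a gene into droplets whose cells do not express it, so a share near that of CD43+ monocytes cannot be told apart from background. In dataset 2 the CD43+ monocytes were in another library than the Ly6C+ monocytes, whose own free RNA was not measured. At least 2 Cd209a UMIs were held by 4.08% and 3.81% of Ly6C+ monocytes, against 1.36% and 0.525% of CD43+ monocytes. In LysoDCs, at median depths of 13104 and 8999 UMIs, 3.68% and 2.35% held a Cd209a UMI, and thinning brought this to 1.35% and 1.07%. In cDC2s of dataset 1, with a median of 7396 UMIs, 7.31% held one, and 3.16% (2.24% to 4.31%) did after thinning, an interval that overlapped that of Ly6C+ monocytes. DN blood cells were at 60.3% and 78.2%, the highest of the populations measured. All these intervals cover counting error only.

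**Figure D1:**
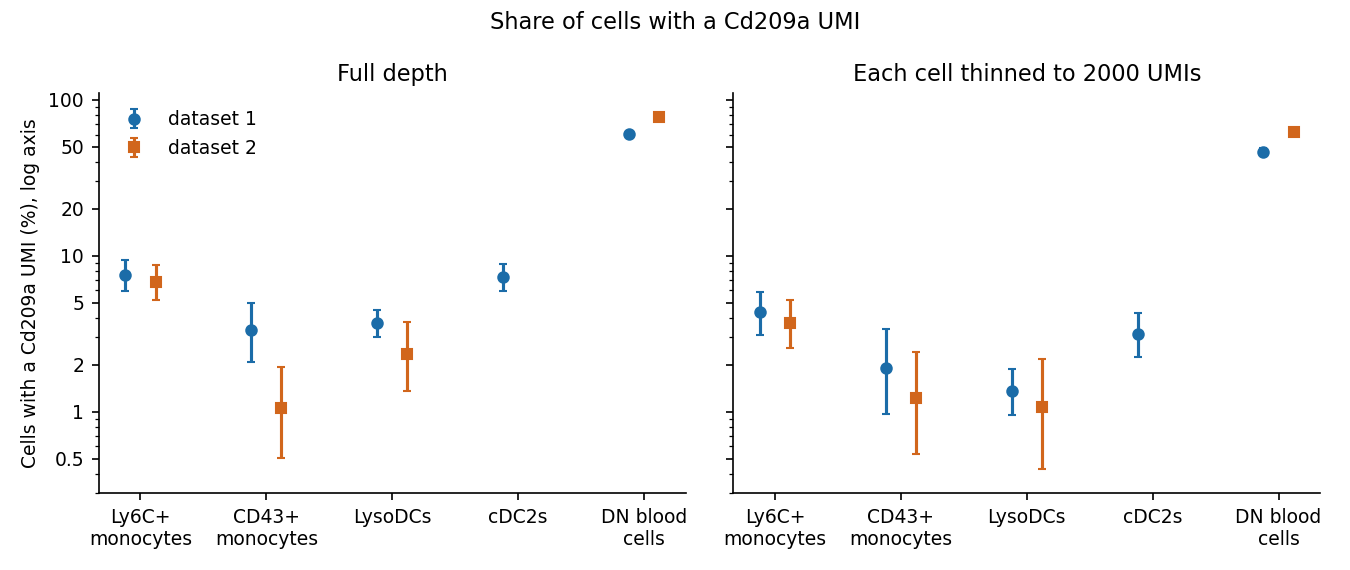
Share of cells with at least 1 Cd209a UMI (percent, vertical axis) in each sorted population of dataset 1 and dataset 2, as measured and with every cell thinned to 2000 UMIs. Bars are exact 95% Clopper-Pearson intervals. Ly6C+ monocytes stood at 7.52% and 6.81% as measured, against 3.32% and 1.05% in CD43+ monocytes and 60.3% and 78.2% in DN blood cells.

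Within the positive monocytes, Cd209a counts were low. Exactly 1 UMI was found in 32 and 26 cells, 2 UMIs in 14 and 13 cells, and 3 or more in 24 and 20 cells, with maxima of 8 and 13. The summed level was 482 and 500.3 CPM (counts per 1e+06 UMIs) in positive monocytes, against 747 and 876 CPM in DN blood cells chosen by the same 1 UMI. Cells just inside the rule, with 1 UMI, had 227 and 157 CPM of Cd209a, and those just outside it had 0.

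The cells carried the transcripts of their gate. Ly6c2, which encodes the Ly6C antigen, had 964 and 1076 CPM in positive monocytes, against 1317 and 1058 CPM in Cd209a-0 monocytes, while Cd209a-positive DN blood cells had 107 and 11.1 CPM. At least 1 Ly6c2 UMI was found in 53 of 70 and 52 of 59 positive monocytes, against 752 of 861 and 661 of 807 Cd209a-0 monocytes. With cells thinned to 2000 UMIs, Ly6c2 was detected in 53.0% and 62.7% of positive monocytes, against 74.5% and 63.2% of Cd209a-0 monocytes, so it was less frequent in dataset 1 and level in dataset 2. Ccr2, the chemokine receptor through which monocytes leave the marrow, had 1595 and 1659.8 CPM in positive monocytes, against 1315 and 1208 CPM in Cd209a-0 monocytes. A Ccr2 UMI was present in 100% of the positive monocytes of both datasets, against 95.1% and 95.9% of Cd209a-0 monocytes. Of the markers given for the positive cells, Clec10a had 192 and 172 CPM in positive monocytes, against 49.1 and 38.6 CPM in Cd209a-0 monocytes, and Ciita had 174 and 102 CPM in positive monocytes, against 57.6 and 56.9 CPM in Cd209a-0 monocytes. The groups did not overlap for either gene, although both were named as markers with earlier results of these data known.

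Other cell types were measured through marker lists. The 12 T and NK cell genes summed to 2.99 and 0 CPM in positive monocytes, with 11 and 12 genes at 0, against 1.58 and 1.25 CPM in Cd209a-0 monocytes. The 11 B cell genes gave 50.9 and 18.2 CPM in positive monocytes, with 9 at 0 in each dataset, against 32.8 and 22.0 CPM in Cd209a-0 monocytes. The 9 LysoDC and macrophage genes stood at 1544 and 159 CPM, with 2 and 4 at 0, against 1739 and 243 CPM in Cd209a-0 monocytes. None of these 3 lists was higher in positive monocytes of both datasets, nor were those of neutrophils (80.8 and 80.8 CPM in positive against 98.8 and 93.1 CPM in Cd209a-0 monocytes), cDC1s, plasmacytoid dendritic cells, erythroid cells, basophils or platelets, each at or under 47.9 CPM in both positive sums.

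Markers of DN blood cells had a higher summed level in positive monocytes, on few UMIs. Of the 6 tested, 0 passed over 5 populations in edgeR (2 with an unadjusted p under 0.05), and Cd7 alone of 3 tested was higher in the fit of Ly6C+ sums, a fit described with the gene tests below. Cd7 had 2 and 0 UMIs in Cd209a-0 monocytes and entered that fit only through its positive sums, so only a higher call was open to it. DESeq2 called Cd7 as well. By CPM 4 of the 6 were higher in both datasets and 1 was lower. The list of 7 genes summed to 108 and 73.0 CPM, with 2 and 3 genes at 0, against 39.6 and 38.2 CPM in Cd209a-0 monocytes and 389 and 552 CPM in Cd209a-positive DN blood cells. The sum was below that of Cd209a-0 monocytes in the cells of dataset 1 with 2 Cd209a UMIs (30.8 CPM) and in those of dataset 2 with 1 (30.1 CPM). Klrd1, which encodes the NK receptor chain CD94 and is abundant in DN blood cells, had 12 and 5.21 CPM in positive monocytes, against 0.792 and 1.04 CPM in Cd209a-0 monocytes, and 139.9 and 358 CPM in Cd209a-positive DN blood cells. For every 100 Cd209a UMIs, whole Ly6C+ monocytes had 4.35 Klrd1 UMIs (95% interval 1.72 to 9.17) in dataset 1 and 3.65 (1.45 to 7.66) in dataset 2, against 20.8 (19.3 to 22.5) and 46.0 (44.9 to 47.1) in DN blood cells. In CD43+ monocytes the ratio was 25 (12.9 to 45.5) and 75 (35.7 to 154). The ratio in Ly6C+ monocytes lay below that of DN blood cells in both datasets. Over whole gates Clec10a ran the other way, at 155 and 131 UMIs per 100 Cd209a UMIs in Ly6C+ monocytes, against 87.9 and 79.9 in DN blood cells. In CD43+ monocytes this ratio was 64.3 and 65. Of the 250 and 252 Clec10a UMIs of Ly6C+ monocytes, 186 and 186 were in Cd209a-0 monocytes. Positive monocytes alone had 64 and 66 Clec10a UMIs against 161 and 192 Cd209a UMIs. Cd209a-positive DN blood cells had 2947 and 16410 against 3754 and 21507. Among Cd209a-positive cells the order was thus reversed, with less Clec10a per Cd209a UMI in positive monocytes. A UMI of Klrd1, Cd7, Epcam or Lmo1 was present in 19 of 70 and 15 of 59 positive monocytes. Among Cd209a-0 monocytes it was present in 117 of 861 and 125 of 807, a smaller share in both datasets. Scrublet, a doublet caller, marked 0 of 70 and 3 of 59 positive monocytes, against 1 of 861 and 0 of 807 Cd209a-0 monocytes. The part of DN blood cells or their free RNA in the differences below was not tested.

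Gene differences between positive and Cd209a-0 monocytes were tested on summed counts with edgeR's quasi-likelihood test (two-sided, Benjamini-Hochberg adjustment, threshold 0.05, dataset as a block). In a fit over 5 blood populations, which share 1 estimate of each gene's spread, 1 of 10197 genes passed, or 0.00981%, and it was higher. The gene was Trappc5, and 671 genes (6.58%) had an unadjusted p under 0.05. DESeq2 on the same sums called 25 genes, 23 higher and 2 lower. When the spread was taken from the 4 Ly6C+ sums alone, 153 of 8781 genes passed (1.74%), with 62 higher (0.706%) and 91 lower (1.04%). That second fit has 1 residual degree of freedom and leans on a spread shared across genes, so its p-values are not printed. Both fits take the difference from the same 4 Ly6C+ sums, so a shared sign between them is no support. The number of genes that passed depended on whether the DN and CD43+ sums were in the fit, and both outcomes are given for the gene groups below. Changes named below as higher or lower in the fit of Ly6C+ sums passed in that fit. A gene scarce in either group entered that fit, past its filter on low counts, only through the other group. For such a gene a single direction was open, so its call there was no test of direction. The median log2 fold of all genes tested was -0.07 in the fit over 5 populations and -0.0042 in the fit of Ly6C+ sums.

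Trappc5, a subunit of the TRAPP complexes that tether transport vesicles, had 290.3 and 208 CPM in positive monocytes, against 89.8 and 62.1 CPM in Cd209a-0 monocytes. All positive sums lay above all Cd209a-0 sums, by a log2 fold of 1.69 ± 0.19 (SE, adjusted p = 0.00216 over 5 populations, n = 2 pools, edgeR). It no longer passed without the Cd209a-0 sum of dataset 2 (adjusted p = 0.0599, edgeR) or without the positive sum of dataset 1 (0.364) or dataset 2 (0.165). Mrc1, the macrophage mannose receptor, came next with 108 and 93.8 CPM in positive against 16.9 and 12 CPM in Cd209a-0 monocytes (log2 fold 2.78 ± 0.38, adjusted p = 0.0945, edgeR over 5 populations). Fcor, named for its corepression of the transcription factor Foxo1 in fat cells, had 83.8 and 70.4 CPM in positive against 12.9 and 9.14 CPM in Cd209a-0 monocytes (log2 fold 2.78 ± 0.41, adjusted p = 0.0945, edgeR over 5 populations). Neither passed over 5 populations, and both passed in the fit of Ly6C+ sums, where their log2 folds were 2.84 ± 0.26 for Mrc1 and 2.84 ± 0.31 for Fcor.

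MHC class II genes were higher as a group in positive monocytes. Of the 16 genes of the class II presentation list, 0 passed over 5 populations in edgeR, 6 had an unadjusted p under 0.05, and DESeq2 called 4 (Cd74, H2-Aa, H2-Ab1 and H2-DMb1). Their median log2 fold was 0.96 in edgeR, and 12 had a higher CPM in positive monocytes of both datasets and 2 a lower one. In the fit of Ly6C+ sums, 7 of 14 tested genes passed, all of them higher, and the median was 1.02. Over all genes tested, 21.8% (2225) had a higher CPM in positive monocytes of both datasets and 32.2% (3287) a lower one.

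The invariant chain gene Cd74, which chaperones class II molecules until peptide is loaded, had 10978 and 7293 CPM in positive monocytes, against 3392 and 2613 CPM in Cd209a-0 monocytes (log2 fold 1.62 ± 0.11 in the fit of Ly6C+ sums). The class II chain genes followed the same order. H2-Aa had 2750.4 and 2478 CPM in positive against 729.5 and 733 CPM in Cd209a-0 monocytes (log2 fold 1.87 ± 0.09), H2-Ab1 had 2604 and 2371 CPM in positive against 827 and 790.2 CPM in Cd209a-0 monocytes, and H2-Eb1 had 1987 and 1318 CPM in positive against 619.7 and 434 CPM in Cd209a-0 monocytes. For each chain the lower positive sum was above the higher Cd209a-0 sum. Over 5 populations H2-Aa missed the threshold (log2 fold 1.81 ± 0.55, adjusted p = 0.723, edgeR). The genes of the peptide loader H2-DM were higher too, with 518 and 459 CPM in positive against 202 and 171 CPM in Cd209a-0 monocytes for H2-DMb1 and 554 and 659 CPM in positive against 372 and 363 CPM in Cd209a-0 monocytes for H2-DMa. Ciita, the transactivator of these genes, had a log2 fold of 1.22 ± 0.34 over 5 populations (adjusted p = 0.562, edgeR) and 1.27 ± 0.19 in the fit of Ly6C+ sums.

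These abundant genes were also found in CD43+ monocytes, which had 3259.7 and 1012 CPM of Cd74 and 701 and 273 CPM of H2-Aa, in dataset 2 from another library. Every Cd209a-0 monocyte of dataset 1 held a UMI of Cd74, H2-Aa, H2-Ab1 or H2-Eb1. The lower-abundance Ciita had 21.2 and 15 CPM in CD43+ monocytes, and with cells thinned to 2000 UMIs it was detected in 34.8% and 18.6% of positive monocytes, against 8.86% and 8.10% of Cd209a-0 monocytes. The part of free RNA in the class II levels was not tested.

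The promoters of 3 class II genes that were higher in the fit of Ly6C+ sums and hold the motif are shown, since class II promoters are known for a shared Y box, an inverted CCAAT element bound by NF-Y. Each runs 5′ to 3′ over 300 bases, from 250 before the start of the gene to 50 after it, in RefSeq's GRCm38.p6, with TGATTGG in capitals.
H2-Aa: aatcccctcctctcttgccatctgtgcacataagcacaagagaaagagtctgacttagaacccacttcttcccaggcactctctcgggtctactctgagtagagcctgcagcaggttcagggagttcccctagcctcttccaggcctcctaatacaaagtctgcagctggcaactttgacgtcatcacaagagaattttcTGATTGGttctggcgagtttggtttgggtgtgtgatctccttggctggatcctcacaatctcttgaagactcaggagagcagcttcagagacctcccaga
H2-Eb1: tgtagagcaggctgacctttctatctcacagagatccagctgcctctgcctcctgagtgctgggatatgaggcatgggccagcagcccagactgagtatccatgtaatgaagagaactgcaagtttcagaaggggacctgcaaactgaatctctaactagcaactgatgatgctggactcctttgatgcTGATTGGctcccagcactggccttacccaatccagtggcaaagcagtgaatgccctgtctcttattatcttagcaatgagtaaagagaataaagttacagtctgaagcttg
H2-DMb1: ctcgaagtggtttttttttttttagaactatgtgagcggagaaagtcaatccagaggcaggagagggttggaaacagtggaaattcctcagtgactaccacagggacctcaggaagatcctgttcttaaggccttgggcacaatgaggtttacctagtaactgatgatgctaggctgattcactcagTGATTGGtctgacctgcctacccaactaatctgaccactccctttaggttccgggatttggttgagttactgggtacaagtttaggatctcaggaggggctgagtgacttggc
The H2-Aa window is chr17:34287774-34288073 on the minus strand, the H2-Eb1 window chr17:34305617-34305916 on the plus strand and the H2-DMb1 window chr17:34152941-34153240 on the plus strand. The motif began 50, 61 and 63 bases before the starts of these 3 genes. TGATTGG, or its reverse complement CCAATCA, was present in the promoters of 8 of 12 class II list genes that were read. Counted by promoter entry it was present in 8 of 13 of these, against 2568 of 32851 promoters in all (7.82%). Among the 8, Rfx5 held CCAATCA only. The list has 16 genes, and the promoters of Cd74, Ciita, H2-Ab1 and Rfxap were not read. H2-DMa, which was higher in the same fit, had 2 promoter entries, and neither held the motif. A match describes letters only and is not a measurement of binding.

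Class II levels varied widely among the positive monocytes. Summed over Cd74, H2-Aa, H2-Ab1 and H2-Eb1, the median cell had 8105 and 9613 CPM in positive monocytes, against 2778 and 660.4 CPM in Cd209a-0 monocytes. The positive cells of dataset 1 ran from a 10th percentile of 1972 CPM to a 90th percentile of 55042 CPM, and those of dataset 2 from 439 to 33920 CPM. In Cd209a-positive DN blood cells the median was 56754 and 58657 CPM. The distributions overlapped. Of the positive monocytes, 51 of 70 (72.9%) and 47 of 59 (79.7%) lay above the Cd209a-0 median, and of the Cd209a-0 monocytes 132 of 861 (15.3%) and 114 of 807 (14.1%) lay above the positive median. Some Cd209a-0 monocytes therefore had class II levels as high as the typical positive cell, and at these depths a count of 0 does not show that a cell lacks Cd209a RNA.

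**Figure D2:**
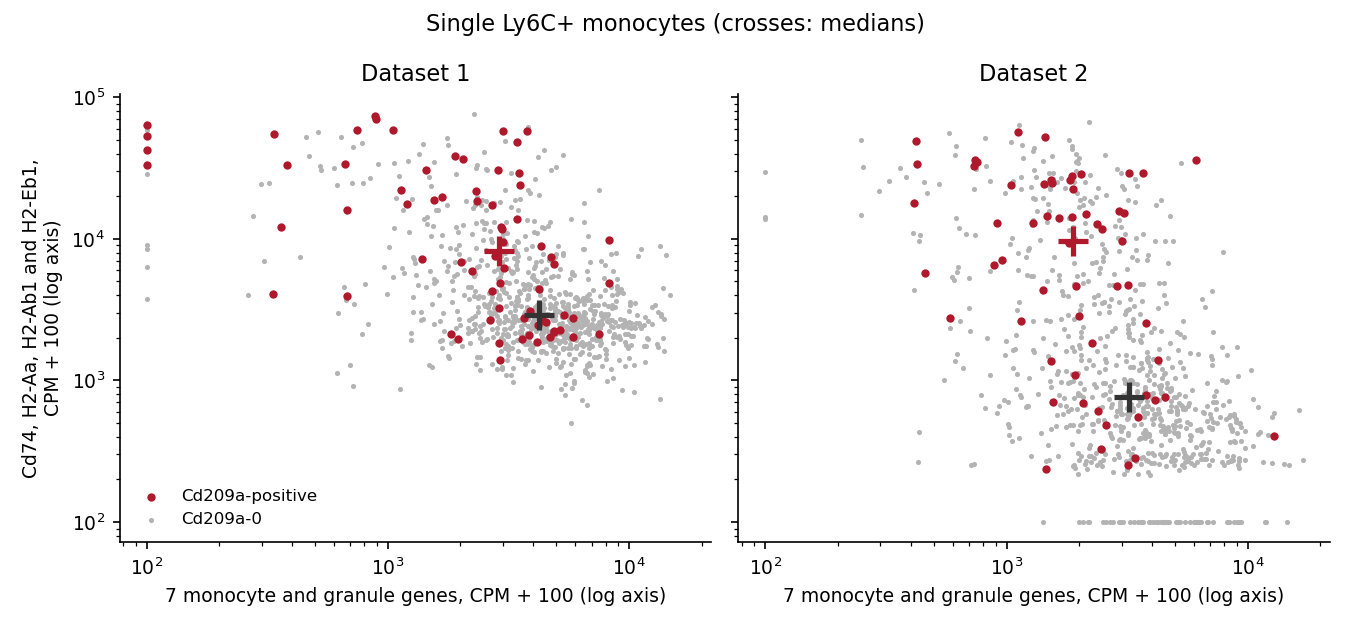
Each point is 1 Ly6C+ monocyte of dataset 1 or dataset 2, with its summed MHC class II level against its summed level of 7 monocyte and granule genes (CPM + 100, both axes on a log scale) and crosses at the medians. Positive monocytes had a median class II level of 8105 and 9613 CPM, against 2778 and 660.4 CPM in Cd209a-0 monocytes, and the 2 groups overlapped.

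Some C-type lectins were higher in positive monocytes, while the list as a whole was split. Of 16 lectin genes tested, 7 had a higher CPM in positive monocytes of both datasets and 5 a lower one. Of the 16, 0 passed over 5 populations in edgeR (7 with an unadjusted p under 0.05, median log2 fold 0.13), and DESeq2 called 6. In the fit of Ly6C+ sums 5 of 13 were higher and 0 lower. The 5 were Cd209d, Clec10a, Clec4b1, Mgl2 and Mrc1, and DESeq2 called these and Cd209b. Cd209d (1 and 0 UMIs in Cd209a-0 monocytes) and Mgl2 entered the fit of Ly6C+ sums only through their positive sums. Only a higher call was open to them there, so these calls were no test of direction. Reads of Cd209d and Cd209b may also be hard to tell from those of Cd209a, which chose the cells. Clec10a rested on 64 and 66 UMIs in positive monocytes (log2 fold 2.03 ± 0.35, adjusted p = 0.269 over 5 populations; 2.09 ± 0.18 in the fit of Ly6C+ sums, edgeR). Mgl2, its close paralog, had 35.9 and 75.6 CPM in positive monocytes, against 2.38 and 2.49 CPM in Cd209a-0 monocytes, from 12 and 29 against 9 and 12 UMIs. Clec4b1, a lectin of dendritic cells, had 123 and 133 CPM in positive against 39.4 and 39.3 CPM in Cd209a-0 monocytes. Reads that Clec10a and Mgl2 share by sequence cannot be split further here.

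A list of 17 tested genes reported for monocytes biased to dendritic cells had a median log2 fold of 0.99 over 5 populations, where 0 passed in edgeR, 5 had an unadjusted p under 0.05 and DESeq2 called 5, with 11 genes of higher CPM in both datasets and 0 lower. With Ly6C+ sums alone 7 of 13 were higher and 0 lower, namely Cd7, Clec10a, Clec4b1, Flt3, Mgl2, Tmem176a and Tmem176b. Cd7 and Mgl2 entered that fit only through their positive sums, so their calls there were no test of direction. The list was drawn up with earlier results of these data known and is no independent evidence. It shares Cd7 and Klrd1 with the list of DN blood cell markers above. Clec10a, Clec4b1 and Mgl2 are also in the lectin list, so the counts of these lists overlap. Flt3, the receptor whose ligand drives dendritic cell development, had 44.9 and 46.9 CPM in positive monocytes, against 9.24 and 9.35 CPM in Cd209a-0 monocytes (log2 fold 2.27 ± 0.41, adjusted p = 0.156 over 5 populations, edgeR). Tmem176b, a membrane protein abundant in dendritic cells, had 778 and 709 CPM in positive against 450.1 and 429.6 CPM in Cd209a-0 monocytes.

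Of 19 genes of the conventional dendritic cell list, 0 passed over 5 populations in edgeR (5 with an unadjusted p under 0.05, median log2 fold 0.28) and 1, Flt3, in DESeq2, with 8 of higher CPM in both datasets and 1 lower, and in the fit of Ly6C+ sums 4 of 16 were higher and 0 lower. Bcl11a, a transcription factor of lymphoid and dendritic cell development, had 71.8 and 70.4 CPM in positive monocytes, against 32.2 and 27.4 CPM in Cd209a-0 monocytes. Dpp4, the peptidase CD26, had 68.8 and 44.3 CPM in positive against 33.5 and 12.9 CPM in Cd209a-0 monocytes, and the corepressor gene Cbfa2t3 had 195 and 190.2 CPM in positive against 132 and 140.0 CPM in Cd209a-0 monocytes. The fourth was Flt3. Zbtb46, a factor that marks conventional dendritic cells, stood at 0 and 2.61 CPM in positive monocytes, from 0 and 1 UMIs, against 0.264 and 0.831 CPM in Cd209a-0 monocytes. Irf4, which cDC2s depend on, had 15 and 33.9 CPM in positive monocytes, against 18.8 and 32.4 CPM in Cd209a-0 monocytes, with the groups overlapping. Slamf7, a self-binding receptor of immune cells, lay outside these lists and had 156 and 67.7 CPM in positive monocytes, against 37.2 and 32.6 CPM in Cd209a-0 monocytes, while Tmem109 had 62.8 and 86 CPM in positive against 42.3 and 40.1 CPM in Cd209a-0 monocytes. Both passed in the fit of Ly6C+ sums.

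**Figure D3:**
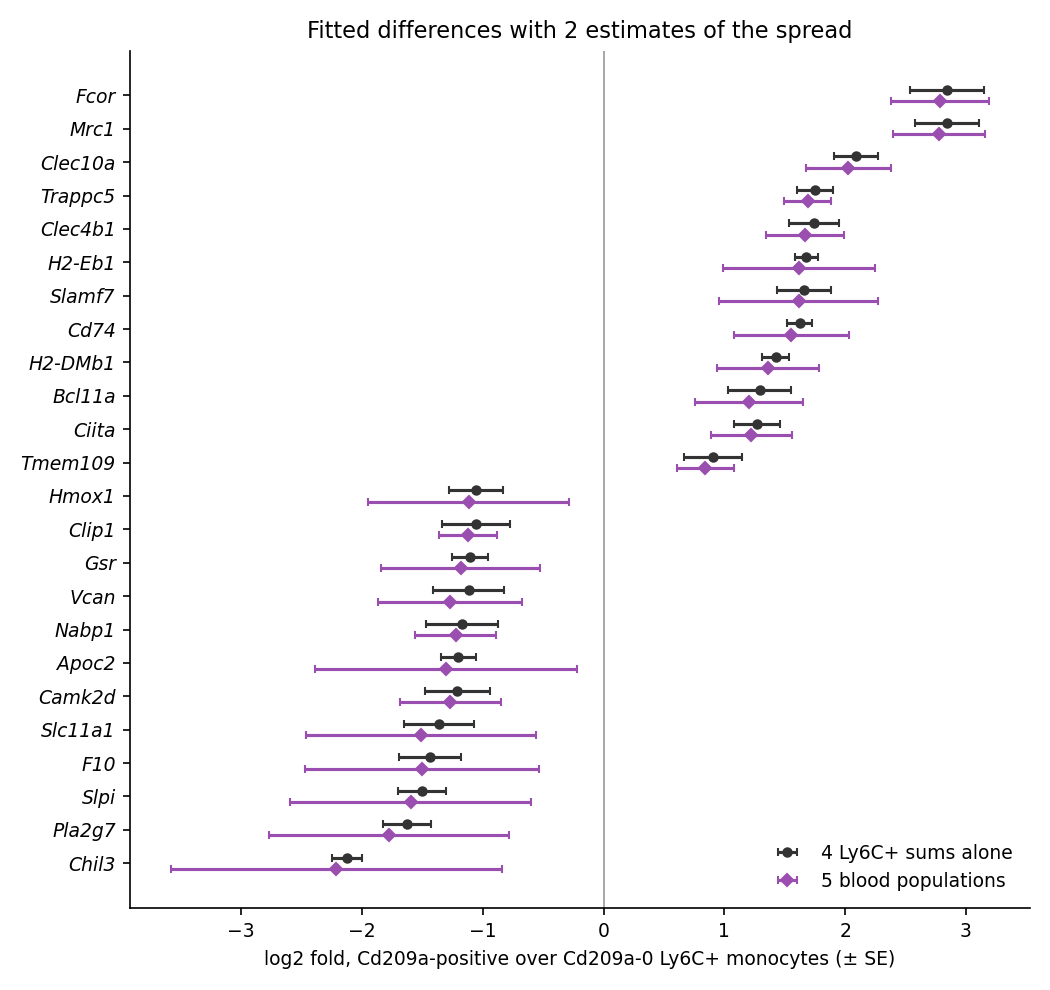
Log2 fold of named genes in positive over Cd209a-0 monocytes in the fit of the 4 Ly6C+ sums and in the fit over 5 blood populations, each with its standard error. Both fits rest on the same 4 Ly6C+ sums for the fold, and the errors of Cd74, H2-Eb1 and Chil3 were wider over 5 populations.

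The classical monocyte programme was partly lower in positive monocytes. Of 22 Ly6C-high genes tested, 0 passed over 5 populations in edgeR (3 with an unadjusted p under 0.05, median log2 fold -0.39) and 0 in DESeq2, with 14 of lower CPM in both datasets and 2 higher. In the fit of Ly6C+ sums 9 of 22 were lower, among them Chil3, Fn1, Gda, Hp, Mgst1, Msrb1, Plac8 and Vcan, and 1, Ccr2, was higher. Over 5 populations the sign of Ccr2 turned without the positive sum of dataset 2 (log2 fold -0.075). Chil3, a secreted chitinase-like protein, had 263 and 276 CPM in positive monocytes, against 1384 and 1057 CPM in Cd209a-0 monocytes (log2 fold -2.12 ± 0.13 in the fit of Ly6C+ sums; log2 fold -2.21 ± 1.37, adjusted p = 0.83 over 5 populations, edgeR). It was detected in 15.2% and 11.9% of positive monocytes thinned to 2000 UMIs, against 59.3% and 53.4% of Cd209a-0 monocytes.

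Haptoglobin (Hp) followed the same order, with 518 and 302.3 CPM in positive against 981 and 737 CPM in Cd209a-0 monocytes. The matrix proteoglycan gene Vcan had 47.9 and 13 CPM in positive against 80.6 and 50.5 CPM in Cd209a-0 monocytes. Plac8 had 820.0 and 2053 CPM in positive against 1195 and 3187 CPM in Cd209a-0 monocytes, so its groups overlapped between datasets but not within either. Fn1, fibronectin, had 688 and 654 CPM in positive against 942 and 918 CPM in Cd209a-0 monocytes, although its sign turned when the Cd209a-0 sum of dataset 2 was left out (log2 fold 0.16). Summed over 7 monocyte and granule genes (Chil3, Vcan, Hp, Mmp8, Gda, F13a1 and Fn1), the median cell had 2800 and 1792 CPM in positive monocytes, against 4153 and 3117 CPM in Cd209a-0 monocytes, and 15 of 70 (21.4%) and 10 of 59 (16.9%) positive monocytes exceeded the Cd209a-0 median. Of 11 granule genes, 7 had a lower CPM in positive monocytes of both datasets and 0 a higher one (median log2 fold -0.73 over 5 populations). Over 5 populations 0 of the 11 passed in edgeR or DESeq2 and 0 had an unadjusted p under 0.05, while 3 of 9 were lower in the fit of Ly6C+ sums, Cd177 and Chil3 among them.

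Other genes lower in the fit of Ly6C+ sums had varied roles. Pla2g7, which breaks down platelet-activating factor, had 74.8 and 41.7 CPM in positive against 162 and 199 CPM in Cd209a-0 monocytes, and Slpi, a secreted protease inhibitor, had 80.8 and 39.1 CPM in positive against 171 and 169 CPM in Cd209a-0 monocytes. Apoc2, a cofactor of lipoprotein lipase, had 132 and 159 CPM in positive against 340.5 and 349 CPM in Cd209a-0 monocytes. The redox enzyme gene Gsr had 138 and 135 CPM in positive against 221 and 378 CPM in Cd209a-0 monocytes, and haem oxygenase (Hmox1) had 44.9 and 54.7 CPM in positive against 85.6 and 126 CPM in Cd209a-0 monocytes. F10, coagulation factor X, had 26.9 and 41.7 CPM in positive against 104 and 89.9 CPM in Cd209a-0 monocytes, and Slc11a1, a metal transporter of phagosomes, had 29.9 and 26.1 CPM in positive against 56.8 and 89.3 CPM in Cd209a-0 monocytes. Each had its lowest Cd209a-0 sum above its highest positive sum, and 0 of these 7 passed over 5 populations. The remaining genes named by the rule were Camk2d, Nabp1 and Clip1, each on 8 to 15 UMIs in every positive sum.

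Genes of CD43-high monocytes, the patrolling type, were also lower. None of 22 tested passed over 5 populations in edgeR (8 with an unadjusted p under 0.05), DESeq2 called Ear2, and their median log2 fold was -1.02, with 15 of lower CPM in both datasets and 0 higher. With Ly6C+ sums alone 9 of 19 were lower and 0 higher. Ear2, an eosinophil-type ribonuclease, had 5.99 and 2.61 CPM in positive monocytes, against 39.1 and 63.1 CPM in Cd209a-0 monocytes, from 2 and 1 UMIs in the positive sums. It entered the fit of Ly6C+ sums through its Cd209a-0 sums, so only a lower call was open to it there. Pou2f2, the transcription factor Oct2, had 218 and 289 CPM in positive against 379.6 and 459 CPM in Cd209a-0 monocytes, and Klf2, a factor of quiescence and trafficking, had 329 and 591 CPM in positive against 506 and 845 CPM in Cd209a-0 monocytes. Summed over the list, positive monocytes had 2424 and 2478 CPM, against 3220.1 and 3788 CPM in Cd209a-0 monocytes and 13807 and 15858 CPM in CD43+ monocytes.

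Interferon-stimulated genes leaned the same way. Of 25 tested, 0 passed over 5 populations in edgeR or DESeq2 (7 with an unadjusted p under 0.05 in edgeR, median log2 fold -0.25), 17 had a lower CPM in both datasets and 2 a higher one. Isg15, Irf7, Oasl2 and Ifi204, 4 of 25, were lower in the fit of Ly6C+ sums and 0 higher. Of all genes in that fit, 1.04% were lower. Summed over the list, positive monocytes had 4151 and 3455 CPM, against 5187 and 3715 CPM in Cd209a-0 monocytes. Cells with 3 or more Cd209a UMIs had 4366 and 4245 CPM, so in dataset 2 they were not lower. Isg15, an antiviral ubiquitin-like protein, had 126 and 146 CPM in positive monocytes, against 263 and 174 CPM in Cd209a-0 monocytes. It had no single order by Cd209a count, with 263, 49.7, 61.6 and 242 CPM at 0, 1, 2 and 3 or more Cd209a UMIs in dataset 1 and 174, 108, 25.2 and 260.4 CPM in dataset 2.

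Other lists differed in how many members passed. Neither the 13 MHC class I genes (median log2 fold -0.02), the 14 cell cycle genes (-0.08) nor the 16 stress genes (-0.23) had a member past the threshold in either edgeR fit or in DESeq2, and 0, 1 and 3 of their genes had an unadjusted p under 0.05. Of 17 chemokine receptor and homing genes, 0 passed over 5 populations in edgeR or DESeq2, 6 had an unadjusted p under 0.05, and the median log2 fold was -0.24. In the fit of Ly6C+ sums 1 of 15 was higher, Ccr2, and 2 were lower, Itgal among them. Itgal, the alpha chain of the integrin LFA-1, had 138 and 99 CPM in positive monocytes, against 134 and 251 CPM in Cd209a-0 monocytes, so its level was lower in dataset 2 and not in dataset 1. Of 12 costimulation genes, 0 passed over 5 populations in edgeR (2 with an unadjusted p under 0.05) and DESeq2 called Tnfsf9. Tnfsf9, which encodes the ligand of 4-1BB, was also the 1 of 11 that was higher in the fit of Ly6C+ sums. It rested on 5 and 4 UMIs in positive monocytes, against 5 and 7 in Cd209a-0 monocytes. Since it entered that fit only through its positive sums, only a higher call was open to it there. Of 27 myeloid transcription factors, 0 passed over 5 populations in edgeR or DESeq2 (4 with an unadjusted p under 0.05, median -0.27), and in the fit of Ly6C+ sums Cebpb, Klf13, Klf2, Maf and Pou2f2, 5 of 27, were lower and 0 higher. Cebpb, a factor that patrolling monocytes depend on, had 156 and 558 CPM in positive monocytes, against 264 and 1002 CPM in Cd209a-0 monocytes.

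Levels were then set out by the number of Cd209a UMIs per cell, in the order 0, 1, 2 and 3 or more. Clec10a had 49.1, 121, 139 and 296 CPM in dataset 1 and 38.6, 102, 151 and 268 CPM in dataset 2, higher at each step. Cd74 had 3392, 8224, 14056 and 12444 CPM and 2613, 6542, 5949 and 8968 CPM. Cells with a single Cd209a UMI were thus already above the Cd209a-0 cells for both genes. For Chil3 the values were 1384, 412, 369 and 46.8 CPM and 1057, 481, 12.6 and 181 CPM, lower in every positive class than at 0. Flt3 had 9.24, 14.2, 61.6 and 70.2 CPM and 9.35, 12, 75.6 and 72.3 CPM. All positive classes together held 15 and 18 Flt3 UMIs, too few to tell steps between these classes. Mrc1 showed no order among positive cells, with 16.9, 121, 77 and 109 CPM and 12, 78.2, 113 and 101 CPM. No test was made between these classes. Median depth was 4394, 4483, 4845 and 5190.0 UMIs from 0 to 3 or more in dataset 1 and 5874, 6311, 6081 and 6781 in dataset 2.

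**Figure D4:**
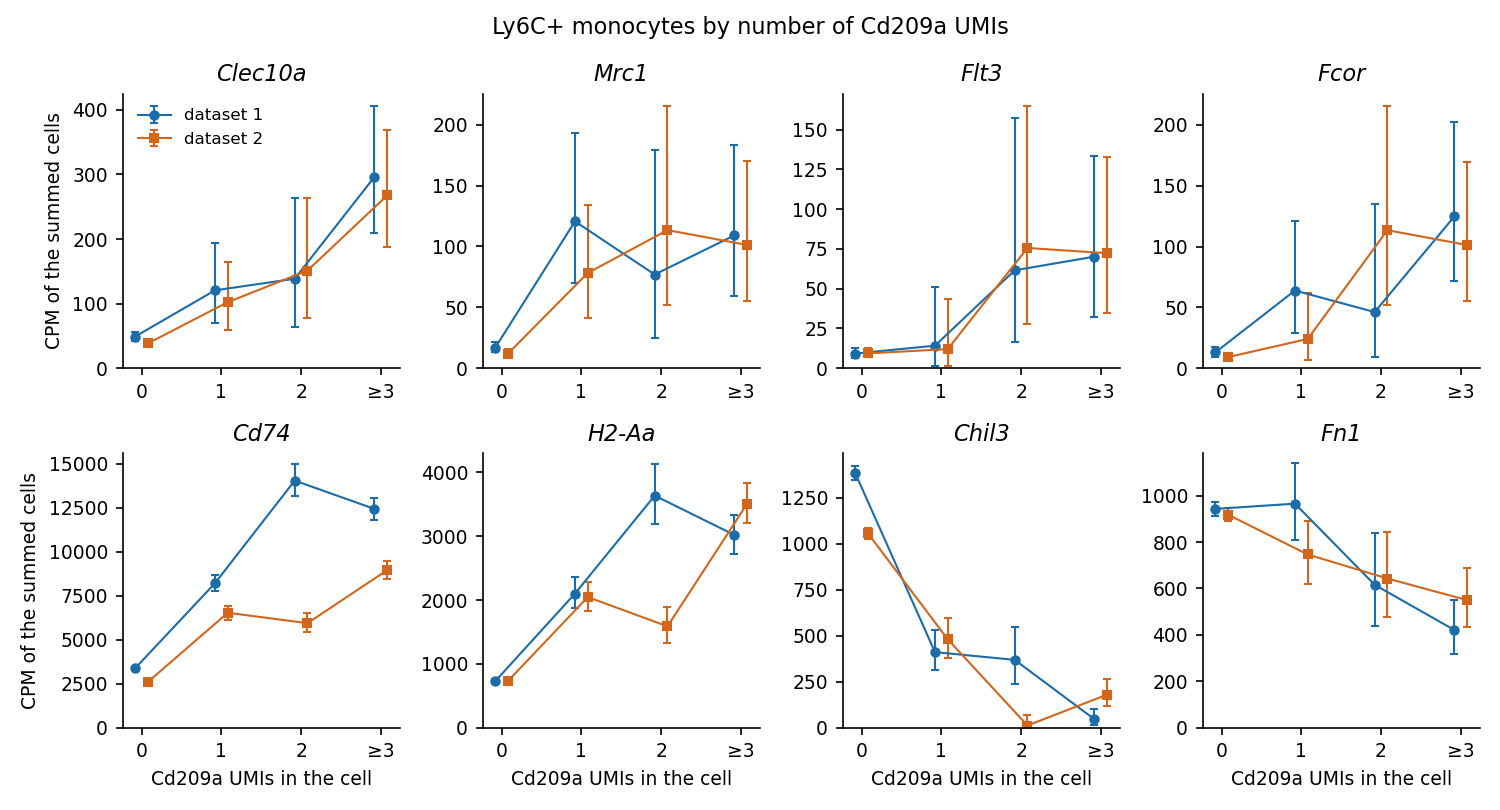
Level of selected genes (CPM, linear axis) in Ly6C+ monocytes with 0, 1, 2 and 3 or more Cd209a UMIs, for dataset 1 and dataset 2, with 95% Poisson intervals that cover counting error. Clec10a was higher at each step in both datasets, and Chil3 was lower in every positive class than in Cd209a-0 cells.

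Read from the other side, cells with a UMI of these genes were more often positive for Cd209a. Of Ly6C+ monocytes with a Clec10a UMI, 18.8% and 16.3% held Cd209a, against 5.09% and 4.57% of those without. With an Mrc1 UMI the share was 26.9% and 35.4%, against 6.02% and 4.49% without. Mgl2 was rare, and 6 of 12 and 8 of 16 cells with an Mgl2 UMI held Cd209a. The largest of these overlaps still left many positive monocytes aside, since 31 of 70 and 27 of 59 of them had a Clec10a UMI.

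Positive monocytes were next set against Cd209a-positive DN blood cells, 1012 and 3889 cells chosen by the same 1 UMI. In dataset 2 these were in different libraries, so gate and library cannot be told apart there. In the fit over 5 populations 161 of 10197 genes passed (1.58%), with 102 higher in positive monocytes (1%) and 59 lower (0.579%), and the median log2 fold of all genes was -0.06. Without either positive Ly6C+ sum 0 passed, and without the Cd209a-positive DN sum of dataset 2 the count was 36. DESeq2 called 429, with 332 higher and 97 lower.

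Class II genes had lower levels in positive monocytes than in these DN blood cells. Their median log2 fold was -1.77 over 16 genes, of which Ciita alone passed, with 174 and 102 CPM in positive monocytes against 395 and 501 CPM in DN blood cells (log2 fold -1.77 ± 0.31, adjusted p = 0.0368, edgeR). Cd74 had 10978 and 7293 CPM in positive monocytes against 30684 and 27379 CPM in DN blood cells and did not pass (log2 fold -1.76 ± 0.48, adjusted p = 0.191, edgeR). Clec10a was lower, with 192 and 172 CPM in positive monocytes against 586 and 669 CPM in DN blood cells (log2 fold -1.85 ± 0.32, adjusted p = 0.0403, edgeR). Kmo, an enzyme of tryptophan breakdown, was lower as well, with 18 and 18.2 CPM in positive monocytes against 78 and 98.7 CPM in DN blood cells. Chd3, Zfp36l1 and Hfe completed the genes named as lower, with log2 folds of -1.79, -1.70 and -1.64.

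Genes of classical monocytes had higher levels than in DN blood cells. The Ly6C-high list had a median log2 fold of 2.40, with Msrb1, Plac8 and Vcan past the threshold. Lpl, lipoprotein lipase, had 68.8 and 119.9 CPM in positive monocytes against 6.57 and 3.99 CPM in DN blood cells (log2 fold 4.29 ± 0.61, adjusted p = 0.0368, edgeR). Msrb1, which repairs oxidised methionine, had 787 and 597 CPM in positive monocytes against 209 and 111 CPM in DN blood cells, and the actin-capping gene Capg had 557 and 456 CPM in positive monocytes against 187 and 95 CPM in DN blood cells. C1galt1c1, a chaperone for O-glycan synthesis, had 71.8 and 70.4 CPM in positive monocytes against 15.5 and 11.2 CPM in DN blood cells (log2 fold 2.40 ± 0.29, adjusted p = 0.00126, edgeR). Mpp1 and Ms4a6d were higher by 1.99 and 1.88 on the log2 scale.

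Placed between Cd209a-0 monocytes and Cd209a-positive DN blood cells, the positive monocytes sat at different points for different genes. Taking the Cd209a-0 level as 0% and the DN level as 100%, Cd74 lay at 27.8% and 18.9%, H2-Aa at 28.1% and 18.2% and H2-Eb1 at 19.8% and 9.36%. Clec10a lay at 26.5% and 21.2%. Among markers of DN blood cells, Klrd1 lay at 8.04% and 1.17%, Cd7 at 20.8% and 32.2% and Lmo1 at 31.8% and 14.8%. By contrast Flt3 lay at 69% and 50.1%, Mrc1 at 64.9% and 107%, Trappc5 at 80.1% and 68% and Fcor at 95.2% and 80.6%. A single fraction did not describe all genes in either dataset. Whether an admixture of DN blood cells contributed to these levels was not tested.

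The same split by Cd209a was made within DN blood cells, as a comparison added after the data were seen. Of 10197 genes 450 passed (4.41%), with 109 higher (1.07%) and 341 lower (3.34%) in Cd209a-positive DN blood cells. Depth differed here, with medians of 4786 and 6725 UMIs in Cd209a-positive and 3824 and 3404 UMIs in Cd209a-0 DN blood cells, and its part was not tested. The 62 genes higher in Ly6C+ sums and these 109 had 21 genes in common, which is 33.9% of the 62 and 19.3% of the 109, while 1.10% of the 8781 genes tested in Ly6C+ sums were among the 109. Trappc5, Fcor, Mrc1, Clec10a and Flt3 were among them. Of the 91 genes lower in Ly6C+ sums 41 were among the 341 (45.1% and 12%), against 3.34% of the 8781, and 0 genes passed in opposite directions. Both splits used the same 2 pools of mice and the same gene, so they are not independent. Trappc5 had 340.1 and 277 CPM in Cd209a-positive against 128 and 159.9 CPM in Cd209a-0 DN blood cells (log2 fold 1.15 ± 0.16, adjusted p = 0.000804, edgeR). Clec10a had 586 and 669 CPM in Cd209a-positive against 133 and 184 CPM in Cd209a-0 DN blood cells (log2 fold 2.05 ± 0.28, adjusted p = 0.00595, edgeR). Cd74 had 30684 and 27379 CPM in Cd209a-positive against 20795 and 21925 CPM in Cd209a-0 DN blood cells and did not pass (log2 fold 0.50 ± 0.46, adjusted p = 0.75, edgeR). When the difference within Ly6C+ monocytes was tested against the difference within DN blood cells in edgeR, 0 of 10197 genes passed (0%), and 561 (5.5%) had an unadjusted p under 0.05.

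Trappc5 and Fcor are neighbours of Cd209a, a fact looked up after their values were seen. In GRCm38, Cd209a spans positions 3743397 to 3748984 of chromosome 8 on the minus strand. Trappc5 lies at 3676299 to 3681255 on the plus strand, 62.1 kb away, and Fcor at 3671188 to 3672362 on the minus strand, 71.0 kb away. Next to them is Mcemp1, a mast cell membrane gene at 3665754 to 3669259 and 74.1 kb away, with 452 and 323 CPM in positive monocytes, against 334 and 245 CPM in Cd209a-0 monocytes (log2 fold 0.45 ± 0.11 in the fit of Ly6C+ sums). Of 25 genes within 300 kb, 17 were tested over 5 populations. Of these 17, 7 had a higher CPM in positive monocytes of both datasets, against 21.8% of all genes tested. In the fit of Ly6C+ sums 4 of 11 tested were higher, these 3 genes and Cd209d, against 0.706% of all genes in that fit. Cd209d entered that fit only through its positive sums, so its call was no test of direction. The window was set after Trappc5 and Fcor were seen, so its counts include the genes that prompted it. Cd209d rested on 5 and 15 UMIs in positive monocytes against 1 and 0 in Cd209a-0 monocytes, and Cd209b on 1 and 5 against 0 and 0. Reads of these paralogs may be hard to tell from those of Cd209a, which chose the cells, so their values are uncertain. In DN blood cells 8 of the 17 were higher with Cd209a, against 1.07% of all genes tested. They were Arhgef18, Mcemp1, Fcor, Trappc5, Clec4g, Cd209d, Cd209b and Cd209c.

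**Figure D5:**
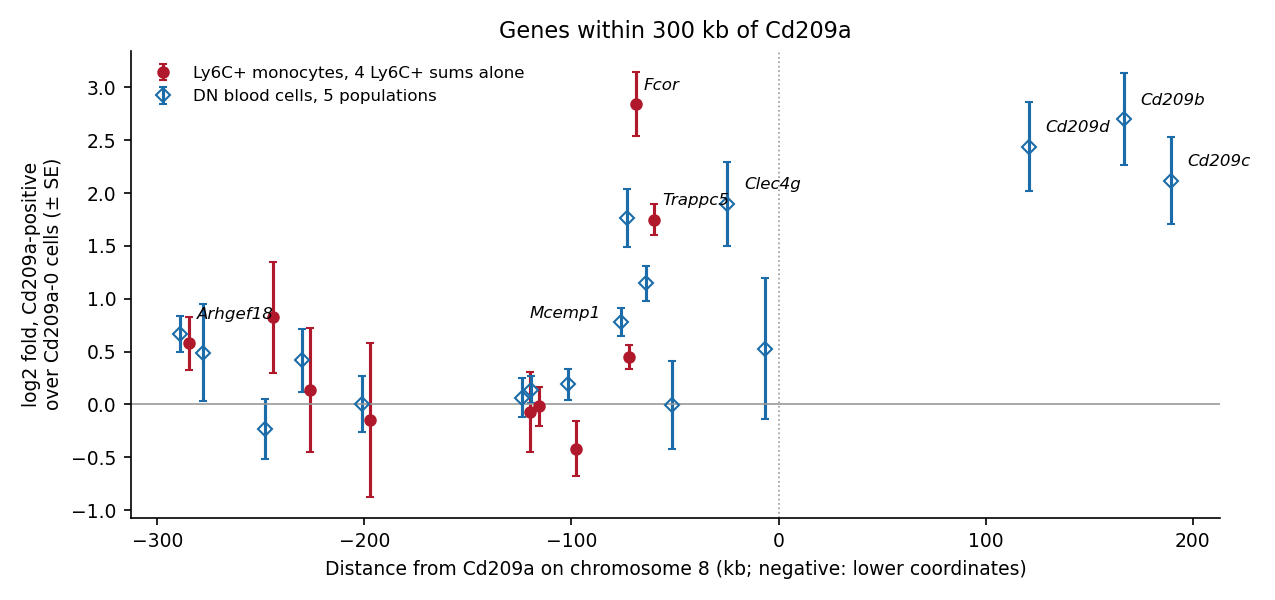
Log2 fold of genes within 300 kb of Cd209a on chromosome 8, plotted by distance in kb, in Ly6C+ monocytes (fit of Ly6C+ sums, filled circles) and in DN blood cells (fit over 5 populations, open diamonds), with standard errors. Genes with 3 or fewer UMIs in Cd209a-0 monocytes are not drawn for Ly6C+ monocytes. Fcor and Trappc5, 71.0 and 62.1 kb from Cd209a, were the highest points of the Ly6C+ monocytes, at log2 folds of 2.84 and 1.75.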

How the data were processed

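The deposited matrices hold raw counts (UMIs per gene or hashtag and barcode), written by Cell Ranger 6.0.1 per the file headers, whereas the submitters' processing notes name Cell Ranger 2.0.0 and mm10. No normalization precedes these deposited counts. Sorted blood and Peyer's patch cells were profiled with the 10x Chromium Single Cell 3′ kit in 2 datasets. Positions came from GENCODE annotation of GRCm38, which held 32158 of the 32285 gene identifiers.

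Hashtags were called with HTODemux of Seurat 5.3.0 (quantile 0.99): 8343 and 8516 barcodes carried a single hashtag, 2422 and 4572 carried more and were dropped, and 1113 and 23 carried none. The filters on UMIs, genes and mitochondrial share were met by 10178 and 10571 barcodes, and both steps left 7217 and 7470 cells. Doublets beyond hashtags were marked with Scrublet (scanpy 1.11.5) and removed only as an alternative, at 5.06% and 0.974% of filtered barcodes.

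Raw counts were summed per dataset for 5 blood populations (Ly6C+ and DN cells with and without Cd209a, and CD43+ monocytes) and tested with edgeR 4.0.16 in R 4.3.3 (TMM, filterByExpr, robust quasi-likelihood fit, dataset as a block, two-sided). There were 4 residual degrees of freedom, median prior degrees of freedom of 11.58 and a biological coefficient of variation of 0.13. In the fit of the 4 Ly6C+ sums there was 1 residual degree of freedom, with infinite median prior degrees of freedom and a coefficient of 0.0482. For the typical gene its standard errors therefore hold a spread shared across genes and none of the gene's own between pools. Dataset pairs positive and Cd209a-0 cells because both come from the same pool of mice and library. Standard errors are the fitted change over the square root of its F statistic. Scripts were tested on simulated data. CPM are sums divided by all gene UMIs, times 1e+06. Precision is limited by counts, and intervals cover counting error only.

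Members and gene lists (25 lists, 327 genes) were chosen with earlier results of these data known. The naming rule took the 12 largest changes each way past the threshold, with matching signs in the datasets and a level of 50 CPM or more in the higher group, up to 4 members of each list, and the 6 largest each way against DN blood cells. It left out mitochondrial, ribosomal, haemoglobin, immunoglobulin and unnamed genes. Since 1 gene passed over 5 populations, the rule was also applied to the fit of Ly6C+ sums, after values were seen. The window of 300 kb, the split of DN blood cells and the test of the difference between splits were added then too. Genes named outside the rule, among them Zbtb46, Irf4, Klrd1, Isg15 and Mcemp1, come from the lists, the marker checks or the window. Alternatives varied scaling, filter, tool, hashtag quantile, depth, Cd209a minimum and libraries.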

Additional observations from a re-analysis of the deposited data

How the results depend on the processing

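Counts of genes that passed depended on the setting. For positive against Cd209a-0 monocytes, 1 passed by edgeR over 5 populations, and 1 also with RLE scaling, at most 5% mitochondrial UMIs, Ly6c2 required or depth-matched Cd209a-0 cells. It was 153 with Ly6C+ sums alone, 115 without the low-count filter, 25 with DESeq2 1.42.0, 6 after Scrublet, 5 with at least 2 Cd209a UMIs, 3 after thinning, 2 with a stricter hashtag quantile, and 0 with no replicate block (dataset left out of the pairing). Leaving out 1 of the 4 Ly6C+ sums gave 0 to 8, with 8 without the Cd209a-0 sum of dataset 1 and 0 without each of the other 3, and no DN or CD43+ sum was left out. The 4 Ly6C+ sums alone allow no such test, since 3 sums leave no residual degrees of freedom. Among alternatives chosen after seeing the data it was 2 with at least 3 Cd209a UMIs, 0 with exactly 1, 2 with library size only and 2 without cells holding a UMI of Klrd1, Cd7, Epcam or Lmo1.

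Against Cd209a-positive DN blood cells 161 passed, with 429 by DESeq2, 750 without the filter, 55 after thinning, 14 with at least 2 Cd209a UMIs and 6 with no replicate block. Leaving out 1 of the 4 Cd209a-positive sums gave 0 to 132, with 0 when either positive Ly6C+ sum was left out. Settings added later gave 3 with at least 3 Cd209a UMIs and 95 with exactly 1.

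The share of positive cells moved to 4.08% and 3.81% with at least 2 UMIs and to 4.33% and 3.72% after thinning, and it lay between 6.49% and 7.56% under other hashtag, doublet, mitochondrial and Ly6c2 settings.

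Over 62 named genes, 1216 alternative values were computed, of which 1014 kept direction and side of the threshold, 119 newly passed, 80 no longer passed and 3 turned sign. These 3 were Ccr2 (-0.075 without positive replicate 2, range -0.075 to 0.66 over sums left out), Fn1 (0.16 without Cd209a-0 replicate 2, range -1.17 to 0.16) and Isg15 (0.11 with at least 3 Cd209a UMIs); the cause was not tested. Trappc5 stayed between 1.53 and 1.91 and passed in 14 of 20 settings, with adjusted p of 0.115 with exactly 1 UMI, 0.0885 with no replicate block, 0.0974 after thinning and up to 0.364 with 1 sum left out (edgeR). Mrc1 passed in 8 of 20, and Clec10a, Fcor and Flt3 in 5 each. The depth of the positive sums, 334136 and 383777 UMIs, limits genes under about 50 CPM to few UMIs.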
